A study of Mus musculus with 6 samples.

Results

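The RSK kinase family was followed in 4T1 cells, a mouse mammary carcinoma line. Its members were taken by gene symbol: Rps6ka1, Rps6ka2, Rps6ka3, Rps6ka4, Rps6ka5 and Rps6ka6, 6 of the 31017 genes in the count table. All 6 passed the filter on low counts, as did 12076 genes of the table. Rps6ka6 was chosen by its counts in these libraries, being nearly lost in ETV4 KO, so its difference between the groups is given as a description with no test. The other 5 members are its paralogs, taken by name.

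The tested cells, called ETV4 KO, were nucleofected with Cas9 and guide RNAs against Etv4, the gene of a PEA3-type ETS factor, and 3 samples were sequenced. The 3 control samples received Cas9 with control guides. Both groups were grown in collagen I gels and released with collagenase before poly(A) RNA was taken. One code names all ETV4 KO libraries. The sources used here do not say whether they come from 1 clone or from separate cultures, so the spread behind each p-value may be technical.

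The p90 ribosomal S6 kinases, or RSKs, are serine/threonine kinases that carry a pair of kinase domains in 1 chain. ERK docks on the C-terminal part and activates its kinase domain, and the kinase PDK1 then switches on the N-terminal domain, which phosphorylates the substrates. The 4 RSK genes are Rps6ka1 (RSK1), Rps6ka3 (RSK2), Rps6ka2 (RSK3) and Rps6ka6 (RSK4). The 2 MSK genes, Rps6ka5 (MSK1) and Rps6ka4 (MSK2), encode nuclear relatives that are activated by both ERK and p38 and phosphorylate CREB and histone H3. In carcinoma cells RSKs are known for linking growth factor signals to translation, survival and motility.

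Total counts were 24356286 to 29042569 per library in ETV4 KO and 22355015 to 26669985 in controls. Etv4 itself had 89.8 CPM ± 2.44 in ETV4 KO and 133.9 CPM ± 0.752 in controls (SD, n = 3 each), where CPM is the TMM-scaled CPM of the count table. This was a log2 fold change of -0.58 (SE 0.036), and gene-level counts do not show whether the cut changed the protein. Etv4 lies on chromosome 11, whose 1002 tested genes had a median log2 fold change of -0.41. The part of the chromosome in the fall of Etv4 was not tested. The groups differed widely: 71.1% of the tested genes were called at an edgeR adjusted p under 0.05, and in 72.7% the values of the groups did not overlap. The 4 epithelial markers Krt8, Krt18, Epcam and Cdh1 summed to 3211 to 3354 CPM in ETV4 KO and 4541 to 4677 CPM in controls. Their log2 fold changes were unlike in size, -0.48 for Krt8, -0.42 for Krt18, -1.37 for Epcam and -0.19 for Cdh1. The 6 fibroblast markers summed to 12.9 to 14.6 CPM in ETV4 KO and 9.87 to 11.7 CPM in controls, nearly all of it Pdgfra, with Lum at 0. The 5 macrophage and leukocyte markers summed to 18.5 to 19.9 CPM in ETV4 KO and 16.9 to 18.4 CPM in controls. Nearly all of this sum was Cd68 and Cd14, with Adgre1 at 0. Ptprc was at most 0.251 CPM in any library, and Csf1r had 5 counts in ETV4 KO and 39 in controls. The 4 endothelial markers stayed under 0.604 CPM in every library. The part of these markers in the results below was not tested.

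Rps6ka6 lies on the X chromosome (111388192 to 111537959 in mm10, minus strand), and RefSeq places a pair of promoter windows at it, one before the outer start and one before an inner start in the gene body. They are shown because Rps6ka6 is the member that was nearly lost, together with those of Rps6ka2 and Rps6ka4, the paralogs with the largest rises. Each is the 250 bases upstream of the start in GRCm38.p6 (equal to mm10), 5′ to 3′ on the strand of the gene, from RefSeq, with GGAA or its reverse complement TTCC, the core that ETS factors bind, in capitals.
Rps6ka6 outer start, chrX:111537960-111538209: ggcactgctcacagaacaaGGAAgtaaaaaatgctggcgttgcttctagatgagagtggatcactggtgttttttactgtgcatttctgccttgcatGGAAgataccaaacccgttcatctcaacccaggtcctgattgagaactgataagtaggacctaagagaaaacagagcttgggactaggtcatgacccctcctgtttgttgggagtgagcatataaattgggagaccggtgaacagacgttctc
Rps6ka6 inner start, chrX:111463498-111463747: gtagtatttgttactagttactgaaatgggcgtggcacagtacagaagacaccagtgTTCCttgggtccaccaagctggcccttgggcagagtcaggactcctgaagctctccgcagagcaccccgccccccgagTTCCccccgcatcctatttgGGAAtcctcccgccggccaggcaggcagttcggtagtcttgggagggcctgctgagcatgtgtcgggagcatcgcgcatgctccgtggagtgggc
Rps6ka2, chr17:7169865-7170114: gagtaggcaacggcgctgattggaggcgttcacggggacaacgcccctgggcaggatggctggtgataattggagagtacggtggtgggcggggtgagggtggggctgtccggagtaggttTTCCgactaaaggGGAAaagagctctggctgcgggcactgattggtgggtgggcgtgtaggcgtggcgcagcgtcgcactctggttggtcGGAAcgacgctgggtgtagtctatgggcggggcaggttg
Rps6ka4, chr19:6840628-6840877: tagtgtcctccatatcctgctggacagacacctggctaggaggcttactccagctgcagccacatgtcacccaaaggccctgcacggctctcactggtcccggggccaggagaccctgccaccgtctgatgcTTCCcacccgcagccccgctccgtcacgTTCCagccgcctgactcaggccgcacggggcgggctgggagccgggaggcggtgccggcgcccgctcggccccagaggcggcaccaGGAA

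The outer Rps6ka6 window held 2 GGAA cores and the inner window 3, counted on both strands. GGAA is common, being present in 93.4% of the 32851 promoter windows of the same length. The longer PEA3-type word AGGAAG, which contains GGAA, occurred once in the outer window and not in the inner one, and 29.5% of all windows hold it on either strand. The windows of Rps6ka2 and Rps6ka4 held 3 GGAA cores each and no AGGAAG. Rps6ka1 has 3 windows, not printed, of which 1 also holds AGGAAG once, and the window of Rps6ka5 holds none. None of the 4 windows held CCGGAAG, which 6.91% of all windows hold. The windows also differed in CpG dinucleotides, with 4 in the outer and 12 in the inner Rps6ka6 window, 19 in that of Rps6ka2 and 18 in that of Rps6ka4, against a median of 6 over all windows. The counts are per gene and do not show which start was used. RefSeq windows were matched for 5 of the 6 members. No 50-base stretch of any annotated Rps6ka6 transcript occurs in another gene's transcripts in GENCODE M21, and the members share no 50-base stretch with each other.

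Rps6ka6, which encodes RSK4, had 4, 3 and 2 counts in ETV4 KO replicates 1, 2 and 3, against 568, 582 and 515 counts in control replicates 1, 2 and 3. Every ETV4 KO library was far below every control library. In TMM-scaled units these were 0.140, 0.121 and 0.0837 CPM in ETV4 KO and 24.5, 21.5 and 22.7 CPM in controls. The means were 0.115 CPM ± 0.0286 in ETV4 KO and 22.9 CPM ± 1.51 in controls (SD, n = 3 each). The 9 counts left over the 3 ETV4 KO libraries amount to 0.511% of the control level, a control level 195.8-fold higher with a 95% Clopper-Pearson interval of 102.9 to 429.1 that covers counting error only. The fitted log2 fold change was -7.56, and 20 of the 12076 tested genes had a lower one. In bulk RNA, fewer cells with the transcript and less transcript per cell cannot be told apart.

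**Figure D1:**
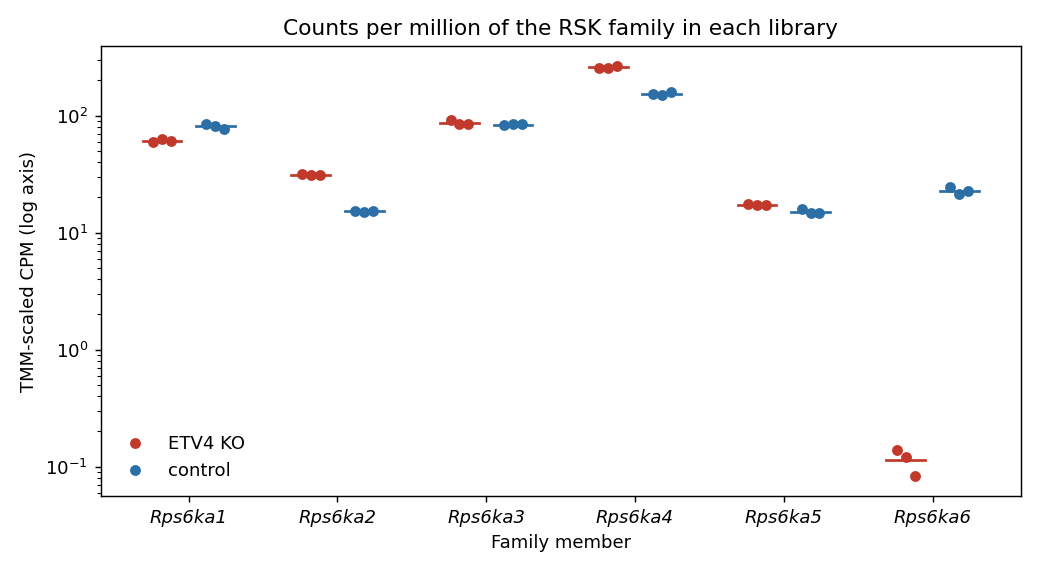
TMM-scaled CPM on a log axis for the 6 family members, with 1 point per library, ETV4 KO in red and control in blue, and a line at the mean of 3. Rps6ka6 sits near 0.1 CPM in ETV4 KO and above 21 CPM in controls, while each paralog stays above 14 CPM in every library.

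The loss of Rps6ka6 was not shared by the 2 genes tested within 2 Mb of its start. Both lie on the same side of it. Apool, which encodes a mitochondrial inner membrane protein, lies 773.4 kb away and had 19.3 CPM ± 1.67 in ETV4 KO and 22.01 CPM ± 0.934 in controls, a log2 fold change of -0.19 with an SE of 0.067 (edgeR adjusted p = 0.0107). That call was lost without ETV4 KO replicate 1 (adjusted p = 0.0826) and without control replicate 2 (0.0727). Chm, a Rab escort protein gene 1648 kb away, had 54.4 CPM ± 5.76 in ETV4 KO and 46.8 CPM ± 1.69 in controls, a log2 fold change of 0.22 with an SE of 0.056 (edgeR adjusted p = 0.000924). Another 14 genes of the table in this window were not tested, since none had more than 9 counts over a group; among them Pof1b had 0 counts in ETV4 KO and 9 in controls, and Satl1 had 6 in each. Within 5 Mb 6 genes were tested, of which 1 was called higher and 5 lower, with log2 fold changes from -0.45 to 0.22. Of the 325 other tested genes of the X chromosome, 3 had a log2 fold change as low as that of Rps6ka6. The median of the 325 was 0.12.

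Of the 5 paralogs, 3 were called higher in ETV4 KO (Rps6ka2, Rps6ka4 and Rps6ka5), 1 lower (Rps6ka1) and 1 was not called (Rps6ka3). With 71.1% of all tested genes called, 35.0% higher and 36.0% lower, 4 of 5 is near the background. The same 4 paralogs had groups that did not overlap, against 72.7% of all tested genes. The sizes of the changes differed. The median absolute log2 fold change over all tested genes was 0.29, and Rps6ka2, Rps6ka4 and Rps6ka1 were above it in absolute size while Rps6ka5 and Rps6ka3 were below it.

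Rps6ka1 encodes RSK1, a main effector of ERK in many epithelial cells, and lies on chromosome 4 (133847290 to 133887797, minus strand). It had 59.6, 63.5 and 60.7 CPM in ETV4 KO replicates 1, 2 and 3, against 84.1, 81.3 and 77.1 CPM in control replicates 1, 2 and 3. All ETV4 KO values were below all control values. The log2 fold change was -0.40 with an SE of 0.043 (edgeR adjusted p = 1.24e-09), from 1451 to 1706 counts per ETV4 KO library and 1753 to 2202 per control library. The genes around it were also lower, with a median log2 fold change of -0.20 over 66 tested genes within 2 Mb, 5 of them called higher and 40 lower. The antisense gene Gm12977 shares 247 exon bases with Rps6ka1, but had only 23 counts over the 6 libraries.

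Rps6ka3 encodes RSK2, whose loss of function causes Coffin-Lowry syndrome in humans, and is the other X-linked member (159210307 to 159368244, plus strand). It had 92.3, 84.2 and 85.4 CPM in ETV4 KO and 82.6, 85.3 and 84.3 CPM in controls. The groups overlapped, with ETV4 KO replicate 2 below control replicate 2. The log2 fold change was 0.055 with an SE of 0.040 (edgeR adjusted p = 0.223), which misses the threshold and does not show that the levels are equal. At 2041 to 2641 counts per ETV4 KO library and 1915 to 2311 per control library, depth was not low. No annotated Rps6ka3 transcript shares a 50-base stretch with another gene.

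Rps6ka2 encodes RSK3, which has been described as a candidate tumour suppressor in human ovarian cells, and lies on chromosome 17 (7170115 to 7303315, plus strand). It had 909, 769 and 748 counts in ETV4 KO and 356, 406 and 346 counts in controls. These are 31.8, 31.1 and 31.3 CPM in ETV4 KO, against 15.3, 14.99 and 15.2 CPM in controls. The replicates lay close together and the groups were clearly apart, with a log2 fold change of 1.05 with an SE of 0.059 (edgeR adjusted p = 8.79e-16). Over both directions, 9.89% of the tested genes were called with a change of at least 2-fold. Counting upward only, Rps6ka2 ranked 429 among the 12076 tested genes. Genes near it were also higher: 14 of 22 tested genes within 2 Mb were called higher and 1 lower, with a median log2 fold change of 0.34, and the chromosome 17 median was 0.33. None of the 22 reached the value of Rps6ka2, the highest being 0.85, and 32 of the other 619 tested genes of chromosome 17 had a value at least as high. Of the 50-base stretches of its transcripts 19.4% also occur in other genes, mainly in Sod2 and an unnamed locus. Sod2 had 72.5 CPM ± 3.13 in ETV4 KO and 47.7 CPM ± 1.31 in controls (SD, n = 3 each). The sources used here do not say how reads that map to several places were counted, so this part of the Rps6ka2 count is uncertain.

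Rps6ka4 encodes MSK2, a chromatin and CREB kinase, and lies on chromosome 19 (6829085 to 6840636, minus strand). It had 7380, 6379 and 6307 counts in ETV4 KO and 3532, 4101 and 3615 counts in controls, the highest counts of the family. In CPM these were 257.8, 257.7 and 263.8 in ETV4 KO, against 152.3, 151.4 and 159.0 in controls. Every ETV4 KO value was above every control value, and the replicates of each group lay close together. The log2 fold change was 0.75 with an SE of 0.033 (edgeR adjusted p = 2.59e-18), a size that 6.48% of the tested genes reached or passed upward. The 109 tested genes within 2 Mb went both ways, with 52 called higher and 18 lower, a median log2 fold change of 0.090 and a range of -1.83 to 3.78. Of the other 421 tested genes of chromosome 19, 28 had a value as high. Of the 50-base stretches of its transcripts 16.5% also occur in other genes, nearly all in a same-strand transcript that shares 654 exon bases with Rps6ka4. That transcript is not in the count table under its GENCODE name. The annotation used for counting is not given, so whether it took reads from Rps6ka4 is not known.

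Rps6ka5 encodes MSK1, the MSK best known for phosphorylating histone H3 and CREB after mitogens and stress, and lies on chromosome 12 (100548439 to 100726983, minus strand). It had 17.7, 17.3 and 17.3 CPM in ETV4 KO, against 16.0, 14.7 and 14.9 CPM in controls. The groups did not overlap, but the gap was small. The log2 fold change was 0.20 with an SE of 0.068 (edgeR adjusted p = 0.00919), from 413 to 506 counts per ETV4 KO library and 338 to 397 per control library. The 23 tested genes within 2 Mb had a higher median, 0.31, with 18 called higher and 1 lower. Over the 14 alternatives its adjusted p ran from 0.00676 to 0.0489.

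**Figure D2:**
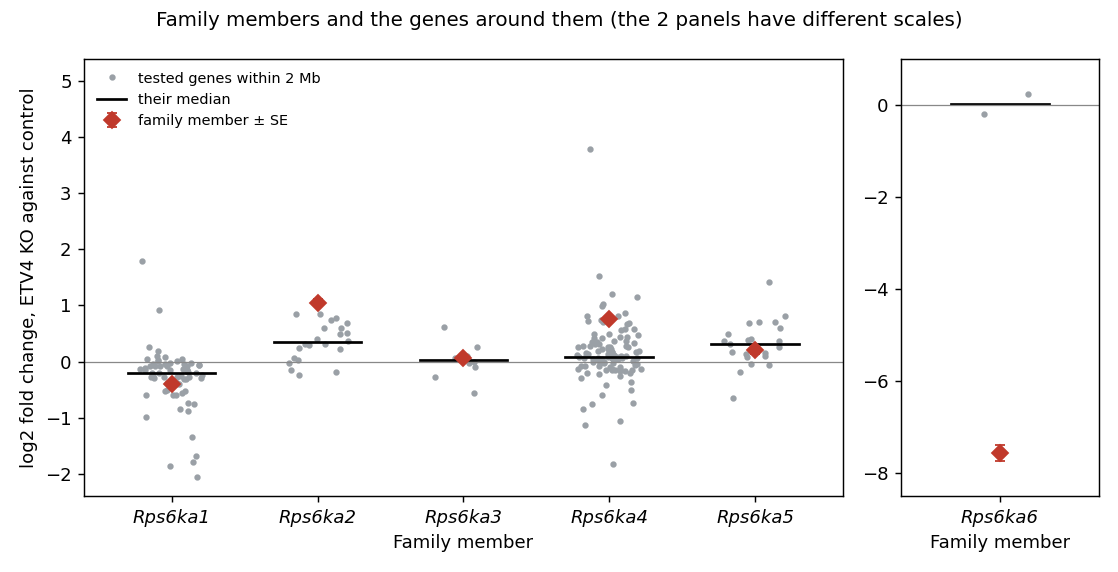
Log2 fold change of each family member (red diamond, error bar 1 SE), of the tested genes whose start lies within 2 Mb of it (grey points) and of their median (black line); the right panel, for Rps6ka6, has its own scale. Each of the 5 paralogs lies on the same side of 0 as the median of its neighbours, while Rps6ka6 is at -7.56 and its 2 tested neighbours are at -0.19 and 0.22.

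Levels of different members were compared per length, as CPM per kb of annotated exon. In ETV4 KO the order was Rps6ka4 at 72.3 ± 0.976 CPM per kb, Rps6ka1 at 14.4 ± 0.467, Rps6ka3 at 10.5 ± 0.523, Rps6ka2 at 3.14 ± 0.0355, Rps6ka5 at 1.46 ± 0.0192 and Rps6ka6 at 0.0229 ± 0.00570 (SD, n = 3). In controls the order was Rps6ka4 at 42.9 ± 1.16 CPM per kb, Rps6ka1 at 19.0 ± 0.830, Rps6ka3 at 10.1 ± 0.169, Rps6ka6 at 4.56 ± 0.301, Rps6ka2 at 1.52 ± 0.0180 and Rps6ka5 at 1.27 ± 0.0580 (SD, n = 3). Rps6ka6 was thus the fourth member by level in controls and the last in ETV4 KO. With the longest transcript as the length, the order was the same in both groups, but in controls Rps6ka2 (2.77 to 2.84 CPM per kb) and Rps6ka5 (2.60 to 2.83 CPM per kb) overlapped; all other neighbours in the order stayed apart in their ranges under both lengths.

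The makeup of the family differed between the groups. The summed level of the 6 members was 101.7 CPM per kb ± 0.650 in ETV4 KO and 79.4 CPM per kb ± 0.744 in controls (SD, n = 3 each). The 4 RSK genes summed to 28.0 CPM per kb ± 0.331 in ETV4 KO and 35.2 CPM per kb ± 0.910 in controls, whereas the 2 MSK genes summed to 73.7 CPM per kb ± 0.966 in ETV4 KO and 44.2 CPM per kb ± 1.15 in controls. Rps6ka4 alone made up 71.0% ± 0.512 of the family in ETV4 KO and 54.1% ± 1.24 in controls. Among the 4 RSK genes, Rps6ka6 held 0.0816% ± 0.0195 in ETV4 KO and 12.97% ± 0.689 in controls, and Rps6ka2 held 11.2% ± 0.143 in ETV4 KO and 4.33% ± 0.105 in controls. Rps6ka1 held 51.3% ± 1.74 in ETV4 KO and 53.97% ± 1.01 in controls, and Rps6ka3 held 37.4% ± 1.65 in ETV4 KO and 28.7% ± 1.10 in controls. These sums and shares are descriptions, since Rps6ka6 was chosen for its difference.

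**Figure D3:**
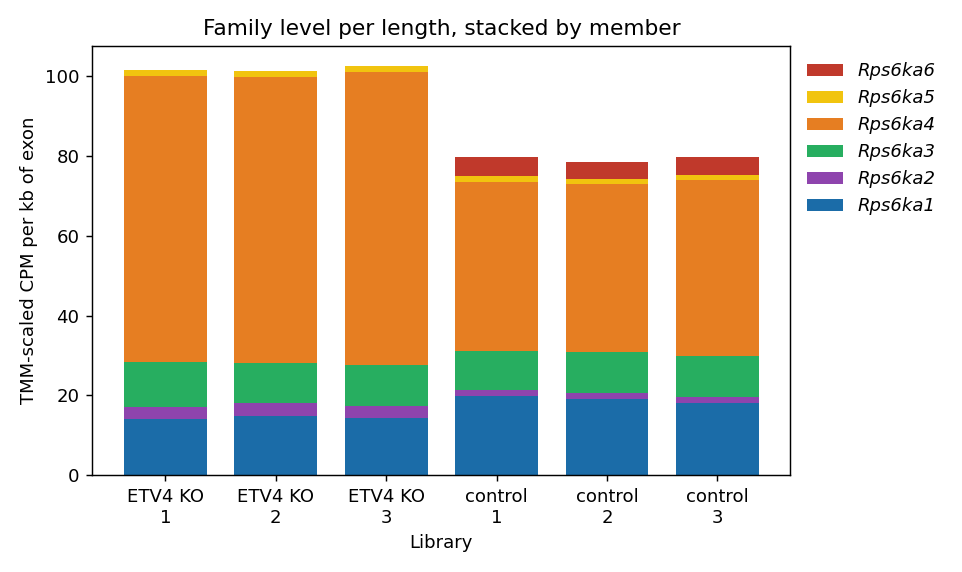
Level of the family per length in each library (stacked bars, TMM-scaled CPM per kb of exon), ETV4 KO replicates at left and control replicates at right. The bars reach 101.3 to 102.5 in ETV4 KO and 78.5 to 79.8 in controls, Rps6ka4 is the largest block in each, and the Rps6ka6 block is visible in controls alone.

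The tested genes whose profiles over the 6 libraries were most like that of Rps6ka6 were Rasef, Zfp518b, Cav1, Ap1m2 and Tmem266, by the Euclidean distance between centred log2 CPM (pseudocount 0.5), at distances of 0.21 to 0.42. All 5 were also nearly lost in ETV4 KO. Rasef, a Rab-family GTPase gene, had 0 counts in ETV4 KO and 1480 in controls. Cav1, which encodes the main coat protein of caveolae, had 0.272 CPM ± 0.0666 in ETV4 KO and 30.4 CPM ± 0.290 in controls (SD, n = 3 each). Ap1m2, an epithelial clathrin adaptor subunit, had 0.648 CPM ± 0.189 in ETV4 KO and 49.4 CPM ± 0.966 in controls. Zfp518b had 1 count in ETV4 KO and 1289 in controls, and Tmem266 had 5 counts in ETV4 KO and 1333 in controls. The likeness is in effect that of the group difference for which Rps6ka6 was chosen, and it is given as a description.

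The kinases upstream of the RSKs moved modestly and both ways. Of 12 genes of the ERK cascade and PDK1, 3 were called higher and 6 lower, with a median log2 fold change of -0.085 against -0.0038 over all tested genes, and none changed by 2-fold. Hras rose by 0.46 (SE 0.041) and Mapk3, which encodes ERK1, by 0.25 (SE 0.043). Pdpk1, the gene of PDK1, had 105.8 CPM ± 4.12 in ETV4 KO and 81.0 CPM ± 0.906 in controls, a rise of 0.39 (SE 0.039, edgeR adjusted p = 3.54e-10). Pdpk1 lies on chromosome 17, where the median log2 fold change was 0.33. Among the lower genes, Braf had -0.48 (SE 0.071) and Araf -0.19 (SE 0.039). With 71.1% of all tested genes called, 9 of 12 is near the background.

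The p38 branch, which feeds the MSKs, held larger differences. Map2k6, which encodes the p38 activator MKK6, had 0 counts in each ETV4 KO library, against 60, 54 and 64 counts in control replicates 1, 2 and 3. Taking 3 counts over the 3 libraries as the floor, it was at least 62.8-fold lower in ETV4 KO (edgeR adjusted p = 5.39e-13). Map2k6 and Map2k3 lie on chromosome 11, where the median log2 fold change was -0.41. Map2k3, the gene of the other p38 activator MKK3, had 172.7 CPM ± 1.74 in ETV4 KO and 180.4 CPM ± 3.69 in controls, a log2 fold change of -0.064 with an SE of 0.033 (edgeR adjusted p = 0.0859).

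Mapk13, which encodes p38 delta, had 143.7, 156.2 and 152.3 CPM in ETV4 KO, against 66.1, 64.8 and 70.9 CPM in controls. It rose by 1.16 (SE 0.041, edgeR adjusted p = 9.16e-21). Mapk14, the gene of p38 alpha and the main activator of the MSKs under stress, had 141.9, 140.5 and 149.1 CPM in ETV4 KO, against 93.7, 92.9 and 94.4 CPM in controls. It rose by 0.62 (SE 0.036, edgeR adjusted p = 2.47e-15). Both genes lie on chromosome 17, whose median was 0.33. Mapk11 (p38 beta) had -0.41 (SE 0.057) and Mapk12 (p38 gamma) -0.087 (SE 0.054). Mapk12 was not called, with an edgeR adjusted p of 0.149, but was called lower without ETV4 KO replicate 2 (0.0224). Thus 2 of the 6 were called higher and 2 lower, against 71.1% of all tested genes called, with a list median of -0.076, the same with Map2k6 at its bound. With library size only, and with upper-quartile factors, 4 were called lower, Map2k3 and Mapk12 being added.

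Relatives of the family were examined next. Of the 5 other kinases that MAPKs activate, Mapkapk3 (MK3) rose by 0.56 (SE 0.052, edgeR adjusted p = 8.96e-11) and Mapkapk5 by 0.17 (SE 0.061, edgeR adjusted p = 0.0162), a call that was lost without ETV4 KO replicate 2 (0.0710), with library size only (0.0892) and with upper-quartile factors (0.0591). Thus 2 of 5 were called, where 71.1% of all tested genes were. Mapkapk2 (0.044), Mknk2 (0.018) and Mknk1 (-0.062) were not called, and the signs of Mapkapk2 and Mknk2 turned with library size alone. Of 10 other S6 kinases and AGC-family relatives, 5 were called higher and 2 lower, near the 71.1% called over all tested genes, with a median of 0.14. Rps6kb1, which encodes the p70 S6 kinase downstream of mTORC1, had 79.5 CPM ± 2.47 in ETV4 KO and 109.7 CPM ± 3.95 in controls, a log2 fold change of -0.46 with an SE of 0.039 (edgeR adjusted p = 1.06e-11), and it lies on chromosome 11. Akt2 rose by 0.45 (SE 0.036), Akt1 by 0.30 (SE 0.030) and the glucocorticoid-regulated kinase gene Sgk1 by 0.30 (SE 0.032). Sgk2 rose by 1.07 (SE 0.29, edgeR adjusted p = 0.00165) from low counts, 122 in ETV4 KO and 55 in controls, and its groups overlapped.

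Genes whose proteins RSKs phosphorylate went both ways. Of 19 tested, 7 were called higher and 8 lower, with a median log2 fold change of -0.0095, and 15 of 19 is near the 71.1% called over all tested genes. Eef2k, the kinase that restrains translation elongation and is inhibited by RSK, had 42.0 CPM ± 2.61 in ETV4 KO and 23.0 CPM ± 1.60 in controls (SD, n = 3 each), a rise of 0.87 (SE 0.059, edgeR adjusted p = 7.17e-14). The RAS exchange factor gene Sos1 rose by 0.62 (SE 0.041), Nfkbia by 0.35 (SE 0.038) and the transcription factor gene Srf by 0.28 (SE 0.035). In the other direction, the death-associated kinase gene Dapk1 had 16.0 CPM ± 1.38 in ETV4 KO and 27.3 CPM ± 0.570 in controls, a log2 fold change of -0.78 with an SE of 0.065 (edgeR adjusted p = 8.71e-12). The translation inhibitor Pdcd4 had -0.63 (SE 0.063), Rps6, the ribosomal protein that names the family, -0.38 (SE 0.033) and the cell cycle inhibitor Cdkn1b -0.36 (SE 0.034).

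On the MSK side, 2 of 5 substrate genes were called higher and 2 lower, where 71.1% of all tested genes were called. The nucleosome-binding protein gene Hmgn1 had -0.44 (SE 0.036, edgeR adjusted p = 3.68e-12) and Atf1, a relative of CREB, rose by 0.22 (SE 0.049, edgeR adjusted p = 0.000259). Creb1 was not called, at 0.022 (SE 0.039), with a sign that turned under library size alone, upper-quartile factors and without control replicate 2. The call of Rela at 0.077 (SE 0.034, edgeR adjusted p = 0.0435) was lost without ETV4 KO replicate 1 (0.0768) or 3 (0.0770) and without control replicate 2 (0.128) or 3 (0.146), and also with DESeq2 (0.0529), library size only (0.515), upper-quartile factors (0.297) and the filter on CPM (0.0628). That of Etv1, a PEA3 factor with -0.10 (SE 0.041, edgeR adjusted p = 0.0262), was lost without ETV4 KO replicate 3 (0.104) and without control replicate 1 (0.0614) or 3 (0.161), with DESeq2 (0.0613) and with no filter on low counts (0.0623).

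Of the 6 immediate early and anti-inflammatory genes whose induction is linked to MSKs, 5 were tested, 4 were called higher and 1 lower, with a median of 0.36, where 35.0% of all tested genes were called higher and 36.0% lower. Nr4a1, an orphan nuclear receptor gene, had 179.1, 192.4 and 181.6 CPM in ETV4 KO, against 80.0, 79.0 and 83.6 CPM in controls, and rose by 1.19 (SE 0.038, edgeR adjusted p = 7.63e-22). The MAPK phosphatase gene Dusp1 had 672.4, 690.2 and 691.0 CPM in ETV4 KO, against 312.2, 320.0 and 325.4 CPM in controls, and rose by 1.10 (SE 0.031, edgeR adjusted p = 3.76e-23). Both were more than 2-fold apart with no overlap. Egr1 rose by 0.36 (SE 0.033) and Fos by 0.21 (SE 0.029), whereas Junb had -0.33 (SE 0.034). Il1rn had 2 counts in each group and was not tested.

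**Figure D4:**
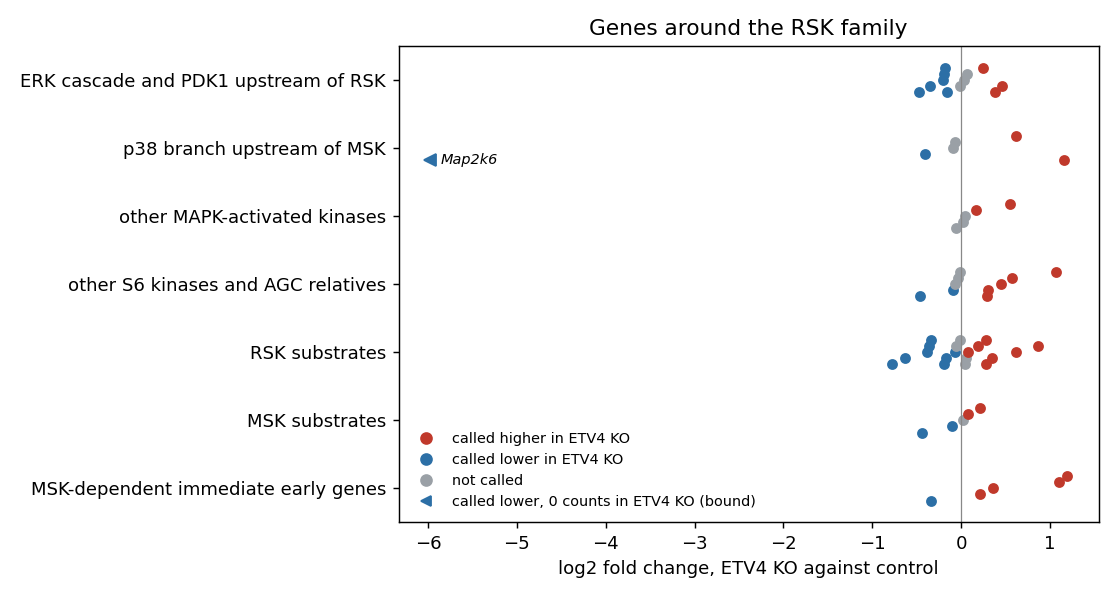
Log2 fold change of each tested gene in the 7 lists around the family, by list, in red where called higher in ETV4 KO, blue where called lower and grey where not called; the triangle marks Map2k6 at its bound, since it had 0 counts in ETV4 KO. Most genes lie within 1 of 0, with Map2k6 far to the left and Mapk13, Sgk2, Nr4a1 and Dusp1 just beyond 1.

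Over the 7 lists 62 genes were tested, of which 25 were called higher and 21 lower, and 5 were called with a change of at least 2-fold. Both counts are near the shares over all tested genes, 71.1% called and 9.89% called with at least 2-fold. All 7 listed genes of chromosome 17 were called higher, where the median of its 620 tested genes was 0.33. Besides Mapk13 and Mapk14, these include Pdpk1, Sos1, Srf and Dusp1. All 4 listed genes of chromosome 6 were called lower, with a chromosome median of -0.19, as were all 3 of chromosome 16, with a median of -0.26. The 4 of chromosome 7, with a median of 0.12, were all called higher. Elsewhere the calls went with the median on some chromosomes and not on others. On chromosome 11 (median -0.41), 3 of the 5 listed genes were called lower and 0 higher. On chromosome 12 (median 0.15), 4 of 5 were called higher and 1 lower. Both listed genes of the X chromosome (median 0.11 with Rps6ka6 included) and the 1 of chromosome 13 (median 0.14) were called lower. Of the 4 on chromosome 10 (median -0.14), 1 was called higher and 1 lower. The part of the chromosome in these values was not tested.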

How the data were processed

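The members and lists were chosen with earlier results of these data known. The authors deposited 1 table of raw counts per gene symbol, with no normalization; the unit was read from the values. Per the submitters' processing notes, featureCounts, STAR 2.7.9a, FastQC 0.11.9 and R 4.1.1 were used, with the builds mm10 and hg38, and no roles are stated. The sources used here give no annotation, strand setting or handling of multi-mapped reads.

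Counts were analysed with edgeR 4.0.16 in R 4.3.3: filterByExpr (minimum count 10, minimum total 15), TMM scaling, and glmQLFit and glmQLFTest with group as the only term, with Benjamini-Hochberg adjustment over 12076 genes and a call at an adjusted p under 0.05. SE is the absolute log2 fold change over the square root of F. limma 3.58.1 (voom) and DESeq2 1.42.0 were alternatives, besides other scalings, other filters, a replicate block and each sample left out in turn. The steps were tested on simulated data. Columns were matched to samples by the library names in the labels. Positions and exon lengths came from GENCODE M21 (mm10), and promoter windows from RefSeq (GRCm38.p6). Named genes were the members, Etv4, every gene of lists of up to 6 genes, up to 4 called genes per direction of longer lists, tested genes within 2 Mb of Rps6ka6 and the 5 nearest profiles; Sod2, Pof1b and Satl1 were added after their values were seen. Not every gene so named is reported here.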

Additional observations from a re-analysis of the deposited data

How the results depend on the processing

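Over the 14 alternatives in normalization, test, filter, pairing and samples, 4 of the 5 paralogs were called in each, and none of the 5 changed direction. The log2 fold change of Rps6ka6 was -7.42 with limma-voom and ran from -7.73 to -7.39 when 1 library was left out. In the lists, 21 to 26 genes were called higher and 18 to 24 lower. With library size only, the log2 fold changes of Mapkapk2, Mknk2 and Creb1 turned to -0.0070, -0.033 and -0.029. With upper-quartile factors Mknk2 and Creb1 had -0.019 and -0.015, and with 1 library left out Creb1 ran from -0.0078, without control replicate 2, to 0.037. These 3 genes were not called in any of these settings. The median shift of the log2 fold changes from the main fit was -0.051 with library size only and -0.037 with upper-quartile factors. The cause of the turned signs was not tested. The median of the genes around Rps6ka6 was 0.012 within 2 Mb, from 2 genes, -0.20 within 5 Mb, from 6 genes, and 0.028 within 10 Mb, from 26 genes. The labels state no pairing of the replicate numbers. Same-numbered libraries deviated together with correlations of only 0.071, 0.0705 and 0.0186, against -0.0863 to 0.0199 for libraries with different numbers. ETV4 KO replicate 3 correlated best with control replicate 1 (0.0199), and every other sample with its own number. Correlations this small do not settle whether the numbers pair the samples. With the replicate block 8882 genes were called in place of 8582, and Rps6ka5 had a log2 fold change of 0.20. Of the named genes, Map2k3 was called lower with the replicate block (adjusted p = 0.0483), with library size only (0.00283) and with upper-quartile factors (0.00824). Depth limits Rps6ka6 in ETV4 KO to 9 counts, so its variation among those libraries cannot be read.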
